A study of Mus musculus with 4 samples.

Results

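The data on 9 chemokine genes were followed across 4 single-cell RNA-seq libraries of C3H 10T1/2 cells, a line of mouse mesenchymal progenitor cells (MPC). The genes were Ccl2, Ccl5, Ccl7, Ccl8, Ccl11, Cxcl1, Cxcl5, Cxcl10 and Cxcl12. They are 9 of the 32285 genes in the count tables and 9 of 44 gene identifiers (38 symbols) of chemokine ligands. All 9 were measured in barcodes with at least 5000 unique molecular identifiers (UMIs), at least 1500 genes and at most 20% mitochondrial UMIs, which kept 22049 of 39891 barcodes. These barcodes are called cells here.

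All 4 libraries came from C3H10T1/2 Clone 8 cells with their own histone genes intact, in which a lentivirus (pCDH-EF1-MCS-puro) added a human H3C2 complementary DNA with C-terminal HA and FLAG tags under the EF1 promoter, followed by puromycin selection. The transgene was either wild type (H3WT) or carried cysteine in place of arginine at residue 26 (H3R26C). Each line was given 5-azacytidine (5-Aza, 3 µM for 24 h, with collection on day 28), a demethylating drug that starts differentiation in these cells, or the vehicle DMSO, for which the collection day was not stated. Each of the 4 conditions was 1 library, so differences between libraries have counting error but no replicate error, and no test was run. The H3WT DMSO, H3WT 5-Aza, H3R26C DMSO and H3R26C 5-Aza libraries held 3710, 5993, 4727 and 7619 cells with medians of 22420, 13149, 16598 and 13123 UMIs a cell. In every library 8 of 9 mesenchymal progenitor markers reached 5 counts per 1000000 UMIs of the library (CPM) and Nt5e did not. The 8 blood cell markers summed to 5.14 to 15.7 CPM, and the 5 endothelial markers summed to 4.69 to 10.6 CPM. Ptprc was counted 0 times in both DMSO libraries, 20 times in H3WT 5-Aza and 140 times in H3R26C 5-Aza. Cd68, another blood marker, stood at 4.98 and 1.89 CPM in the H3WT and H3R26C DMSO libraries. In the H3WT and H3R26C 5-Aza libraries it stood at 9.91 and 10.7 CPM. The endothelial marker Cdh5 reached 5.39 CPM in H3R26C 5-Aza. The 13 skeletal muscle markers summed to 2.51 and 2.65 CPM in the DMSO libraries and to 2167 and 2662 CPM in the 5-Aza libraries. Each pair of libraries shared 24 to 58 cell barcodes (at most 1.11% of the cells of either library), and doublets were not removed.

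Chemokines are small secreted proteins that bind G protein-coupled receptors and direct the movement of cells. Cxcl12 is made steadily by stromal cells and holds progenitor cells and leukocytes in their niche through the receptor Cxcr4, while most of the other members are made on demand, downstream of the transcription factor NF-kB or of interferon, and draw monocytes, neutrophils, eosinophils or T cells into inflamed tissue. Mesenchymal stromal cells are a known source of both kinds.

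The genes lie on 3 chromosomes of the mouse genome (GRCm38). Ccl2 (chr11:82035571-82037453), Ccl7 (chr11:82045712-82047525), Ccl11 (chr11:82057823-82062955) and Ccl8 (chr11:82115185-82116799) stand on the plus strand within 81.23 kb that hold 5 protein-coding genes, these and Ccl12. Ccl5 (chr11:83525778-83530518) stands apart from them on the minus strand. Cxcl5 (chr5:90759360-90761624), Cxcl1 (chr5:90891241-90893115) and Cxcl10 (chr5:92346638-92348889, minus strand) share chromosome 5, and Cxcl12 (chr6:117168535-117181367) is on chromosome 6.

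The 250 bases before the RefSeq start (GRCm38.p6) are printed for the 4 members that matched the promoter table. They show whether short strings read by NF-kB and by interferon factors stand there. The levels of these 4 members are given further on. Of them, Ccl8 and Cxcl10 were at their highest in the H3R26C 5-Aza library, and the other two, Cxcl1 and Cxcl12, were not. Capitals mark matches to GGGANNTTC, part of the NF-kB site, or to GAAANNGAA, part of the interferon-stimulated response element, searched on both strands.
Cxcl10, minus strand, chr5:92348890-92349139: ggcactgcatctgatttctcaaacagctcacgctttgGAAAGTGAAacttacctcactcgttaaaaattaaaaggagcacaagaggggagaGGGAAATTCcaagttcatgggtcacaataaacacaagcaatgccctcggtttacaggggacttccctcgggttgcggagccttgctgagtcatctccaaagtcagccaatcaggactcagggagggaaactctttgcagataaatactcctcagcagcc
Ccl8, plus strand, chr11:82114935-82115184: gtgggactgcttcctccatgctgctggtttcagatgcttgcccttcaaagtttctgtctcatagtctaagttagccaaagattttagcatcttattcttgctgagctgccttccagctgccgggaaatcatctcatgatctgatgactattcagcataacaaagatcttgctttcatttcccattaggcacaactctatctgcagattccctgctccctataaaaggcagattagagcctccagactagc
Cxcl1, plus strand, chr5:90890995-90891244: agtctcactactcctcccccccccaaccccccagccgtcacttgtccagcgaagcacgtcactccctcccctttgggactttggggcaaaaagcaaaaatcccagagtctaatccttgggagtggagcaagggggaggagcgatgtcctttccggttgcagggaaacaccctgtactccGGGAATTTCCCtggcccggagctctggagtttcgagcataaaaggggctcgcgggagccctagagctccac
Cxcl12, plus strand, chr6:117168285-117168534: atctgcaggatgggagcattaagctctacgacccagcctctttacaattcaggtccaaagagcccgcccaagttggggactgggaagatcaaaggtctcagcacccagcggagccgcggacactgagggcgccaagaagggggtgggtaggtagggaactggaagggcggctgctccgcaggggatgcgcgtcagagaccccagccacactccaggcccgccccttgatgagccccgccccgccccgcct
The Cxcl10 window held 1 GGGANNTTC, 159 bases before the start, and 1 GAAANNGAA, 213 bases before it. The Cxcl1 window held GGGANNTTC on both strands in 1 overlapping run, and neither string stood in the Ccl8 or Cxcl12 window. Of 32851 promoter windows of the same length, 3.23% held GGGANNTTC and 7.13% held GAAANNGAA. The Ccl8 window also held TATAAA, 32 bases before the start, a string found in 12.4% of the windows. It had 1 CG pair, the dinucleotide that DNA methylation acts on, against 5 for Cxcl10, 10 for Cxcl1, 14 for Cxcl12 and a median of 6 over all windows (quartiles 2 and 16).

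Cxcl12, the homeostatic member, had the smallest ratio of highest to lowest library among the 9. Its level stood at 519 CPM (95% counting interval 514 to 524) in H3WT DMSO, 691 (686 to 697) in H3WT 5-Aza, 773 (767 to 779) in H3R26C DMSO and 711 (706 to 716) in H3R26C 5-Aza, with UMIs summed over the cells of each library. None of the 4 intervals overlapped, but the whole spread stayed under 2-fold. When every cell was reduced by random draw to 5000 UMIs (thinned), so that depth no longer set detection, 66.9%, 70.4%, 76.3% and 67.2% of cells held a Cxcl12 UMI. Without thinning the shares were 89.5%, 85.3%, 91.3% and 81.7%. Shares and levels gave different orders of the libraries, so no order is read from the shares. The intervals here and below are exact (Poisson for levels, Clopper-Pearson for shares and ratios) and cover counting error only.

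Ccl2 and Ccl7, neighbouring genes whose products draw monocytes through the receptor Ccr2, were highest in the H3R26C DMSO library. Ccl2 measured 57.4 CPM (55.8 to 59.0) in H3WT DMSO, 55.7 (54.1 to 57.3) in H3WT 5-Aza, 172 (170 to 175) in H3R26C DMSO and 97.0 (95.2 to 98.8) in H3R26C 5-Aza. Ccl7 measured 21.4 (20.4 to 22.4), 29.96 (28.8 to 31.2), 96.4 (94.3 to 98.5) and 50.3 (49.0 to 51.6) CPM in the same order. The intervals of the H3WT libraries overlapped for Ccl2, and those of all other neighbours in the order were separate. The share of thinned cells with a UMI did not follow the level. It was 4.66%, 7.91%, 10.7% and 16.6% for Ccl2 and 3.91%, 7.48%, 9.63% and 14.1% for Ccl7, and H3R26C DMSO held the most UMIs of both genes but not the largest share. A positive thinned cell held on average 3.35, 2.95, 5.44 and 2.26 Ccl2 UMIs. In the full counts, 10 cells of each library carried 43.8%, 23.8%, 21.3% and 7.89% of its Ccl2 UMIs, and a single H3R26C DMSO cell carried 708. For Ccl7 the 10 cells carried 35.7%, 15.95%, 15.5% and 6.11%. The intervals do not cover this concentration in few cells, so no order of the DMSO and 5-Aza libraries within a genotype is read from them. Since shares and levels ranked the H3R26C libraries differently, no order of expression is read from the shares.

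Ccl8 and Ccl11, from the same gene group on chromosome 11, stood highest in H3R26C 5-Aza. Ccl8, a monocyte chemoattractant, was counted 39, 179, 43 and 1456 times, which is 0.449 (0.319 to 0.614), 2.12 (1.82 to 2.46), 0.512 (0.370 to 0.689) and 13.2 (12.5 to 13.8) CPM. The DMSO libraries overlapped, H3WT 5-Aza lay above both, and H3R26C 5-Aza lay far above the rest. Thinned cells with a Ccl8 UMI made up 0.189%, 0.701%, 0.190% and 2.63% of the libraries, in the same order as the levels. Ccl11, the eosinophil attractant eotaxin, reached 0.357 (0.243 to 0.507), 0.581 (0.430 to 0.768), 0.631 (0.472 to 0.825) and 2.78 (2.48 to 3.11) CPM. It was under 5 CPM in every library, and its intervals in the first 3 libraries overlapped.

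Ccl5, which attracts T cells, and Cxcl10, an interferon-inducible ligand of Cxcr3, were low in both H3WT libraries. Ccl5 measured 3.85 (3.44 to 4.28), 1.90 (1.61 to 2.22), 18.9 (18.0 to 19.9) and 10.4 (9.81 to 11.02) CPM. The 4 intervals were separate and both H3R26C libraries lay above both H3WT libraries, with 3.15% and 2.14% of thinned cells positive against 0.620% and 0.617%. In the full counts, 10 cells of each library carried 68.6%, 51.25%, 24.4% and 34.3% of its Ccl5 UMIs. The intervals do not cover this concentration in few cells, so no order of the H3WT libraries is read. Cxcl10 was counted 27, 35, 72 and 757 times, or 0.311 (0.205 to 0.452), 0.415 (0.289 to 0.577), 0.857 (0.670 to 1.08) and 6.84 (6.36 to 7.34) CPM. Few cells carried it: 1.19% of thinned H3R26C 5-Aza cells were positive, and 10 cells held 53.5% of that library's Cxcl10 UMIs. In the other libraries at most 0.339% were positive, and 10 cells held 34.7% to 77.8% of the UMIs.

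Cxcl1 and Cxcl5, which attract neutrophils through Cxcr2, did not share a pattern. Cxcl1 was nearly level in 3 libraries, at 38.9 (37.6 to 40.2), 45.7 (44.2 to 47.1) and 44.0 (42.6 to 45.4) CPM, and lower in H3R26C 5-Aza at 25.5 (24.5 to 26.4). Its H3WT 5-Aza and H3R26C DMSO values overlapped, and 12.2%, 14.2%, 14.5% and 7.98% of thinned cells were positive. Cxcl5 stood at 6.34 (5.82 to 6.90), 6.90 (6.35 to 7.48), 34.4 (33.2 to 35.7) and 16.0 (15.3 to 16.8) CPM, with 2.94%, 3.004%, 13.5% and 5.57% of thinned cells positive. The H3WT libraries overlapped, and H3R26C DMSO lay above H3R26C 5-Aza.

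A UMI in a cell can come from free RNA, so the shares are set beside those of another cell class. In the 206 and 307 cells of the skeletal muscle-like cluster of the H3WT 5-Aza and H3R26C 5-Aza libraries (cluster median 16825 UMIs), thinned shares were 4.85% and 5.21% for Ccl2, 4.85% and 2.61% for Ccl7, 4.85% and 3.26% for Cxcl1, 0.971% and 1.63% for Cxcl5, and 33.5% and 28.01% for Cxcl12. Those for Ccl8 were 0% and 0.977%, for Cxcl10 0% and 0.977%, for Ccl5 0.485% and 0.651% and for Ccl11 0% in both. The share over all H3R26C 5-Aza cells was above that of its muscle-like cells for the 9 genes, though by little for Cxcl10 (1.19% against 0.977%). This class is no clean measure of background, since some members reached or passed the library's level in it. Cxcl10 stood at 10.52 CPM in its H3R26C 5-Aza cells (library 6.84), and Ccl5 at 6.80 CPM in its H3WT 5-Aza cells (library 1.90). Both rested on few cells, with 64 Cxcl10 UMIs at a thinned share of 0.977% and 22 Ccl5 UMIs at 0.485%. The part of free RNA in the shares was therefore not tested. The DMSO libraries had no such class to compare with.

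**Figure D1:**
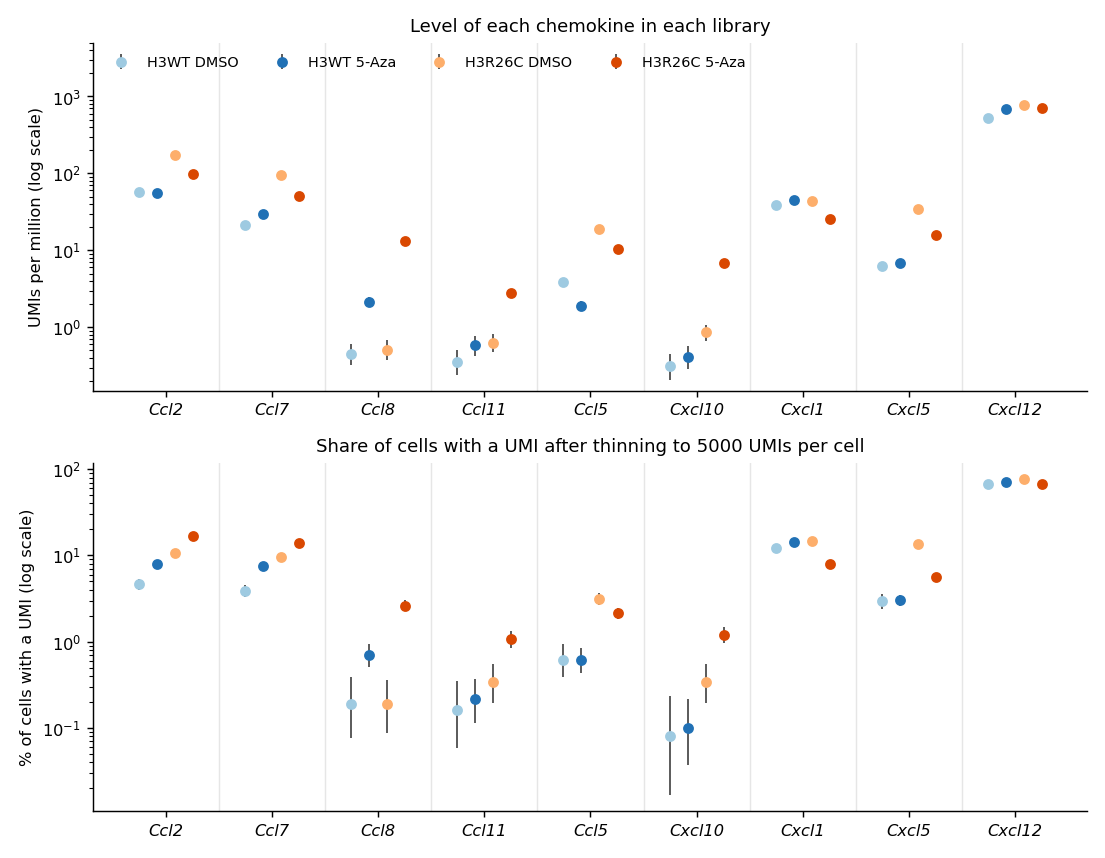
Level of each chemokine in each library, in CPM on a log axis, with 1 point per library and 95% counting intervals where they are wider than the point. Cxcl12 lay between 519 and 773 CPM in the 4 libraries, Ccl8 and Cxcl10 stood highest in H3R26C 5-Aza, and Ccl2, Ccl7, Ccl5 and Cxcl5 stood highest in H3R26C DMSO.

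The first contrast set H3WT cells on day 28 of the 5-Aza course against H3WT cells given DMSO. None of the 5 members with at least 5 CPM in either library passed 2-fold, in either direction. Log2 ratios of CPM + 1 were 0.47 for Ccl7 (0.39 to 0.55), 0.41 for Cxcl12 (0.40 to 0.43), 0.23 for Cxcl1, 0.11 for Cxcl5 and −0.04 for Ccl2. Over all 10257 genes with that level, 3.23% were past 2-fold higher and 0.263% past 2-fold lower, and the median ratio was 0.03 against 0.23 for the members. The members were chosen with earlier results of these data known. In this and the following contrasts the values over all genes therefore give a scale and are no test of the members. Ccl8 had a log2 ratio of 1.11 but lay under the minimum level. Without the 5% of cells with the most UMIs in each library (186 and 300 cells), Ccl2 stood at 1.04 and Ccl7 at 1.15, and the cause was not tested.

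In H3R26C cells the same contrast split the members. Ccl8 (log2 3.23, 3.06 to 3.38) and Cxcl10 (2.08, 1.89 to 2.25) were past 2-fold higher in 5-Aza, and Cxcl5 (−1.06, −1.14 to −0.98) was past 2-fold lower. Of the 10579 genes tested, 6.36% were higher and 3.21% lower by that measure, against 2 and 1 of 8 members. Ccl8 and Cxcl10 reached 5 CPM only in the 5-Aza library, so they could not be counted as past 2-fold lower. In that library 10 cells held 53.5% of the Cxcl10 UMIs and 26.7% of the Ccl8 UMIs, which the intervals do not cover. The Cxcl10 ratio therefore rests largely on few cells. Ccl7 (−0.92), Ccl2 (−0.82), Ccl5 (−0.81) and Cxcl1 (−0.77) were lower in 5-Aza by less than 2-fold, and Cxcl12 stood at −0.12. The members' median was −0.79 and that of all genes −0.04. Without the 5% of cells with the most UMIs, Ccl2, Ccl7 and Ccl5 stood at −0.06, −0.19 and −0.15, and Cxcl10 at 2.42.

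The remaining contrasts asked how the mutant histone compared with the wild type under each treatment. Under DMSO, 4 of 6 members were past 2-fold higher in H3R26C, namely Cxcl5 (2.27), Ccl7 (2.12), Ccl5 (2.04) and Ccl2 (1.57). Cxcl12 (0.57) and Cxcl1 (0.17) were not. Of 10160 genes, 1.62% were higher and 0.522% lower, and the members' median of 1.81 compared with 0.04 for all genes. After 5-Aza, 4 of 8 members were past 2-fold higher in H3R26C: Cxcl10 (2.47), Ccl8 (2.18), Ccl5 (1.98) and Cxcl5 (1.11). Ccl2 (0.79) and Ccl7 (0.73) were higher by less, Cxcl12 stood at 0.04 and Cxcl1 at −0.82. Of 10575 genes, 4.12% were higher and 2.7% lower, and the medians were 0.95 for the members and −0.03 for all genes. Ccl5 reached the minimum of 5 CPM only in H3R26C under both treatments, and Cxcl10 and Ccl8 only in H3R26C after 5-Aza. The Cxcl10 ratio after 5-Aza also rests largely on few cells, since 10 cells held 53.5% of the H3R26C 5-Aza UMIs. Members that met the minimum in this way could not be counted as past 2-fold lower, and the same rule held for all genes. The contrasts share libraries, so they are given side by side and not combined.

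An opposite move was counted where Cxcl12 was past 2-fold and another member was past 2-fold the other way. Cxcl12 did not pass 2-fold in any of the 4 contrasts, so the count was 0 in each. Inflammatory members did differ among themselves in sign within H3R26C cells, where Ccl8 and Cxcl10 stood higher and Cxcl5 lower in the 5-Aza library beside a Cxcl12 ratio of −0.12.

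**Figure D2:**
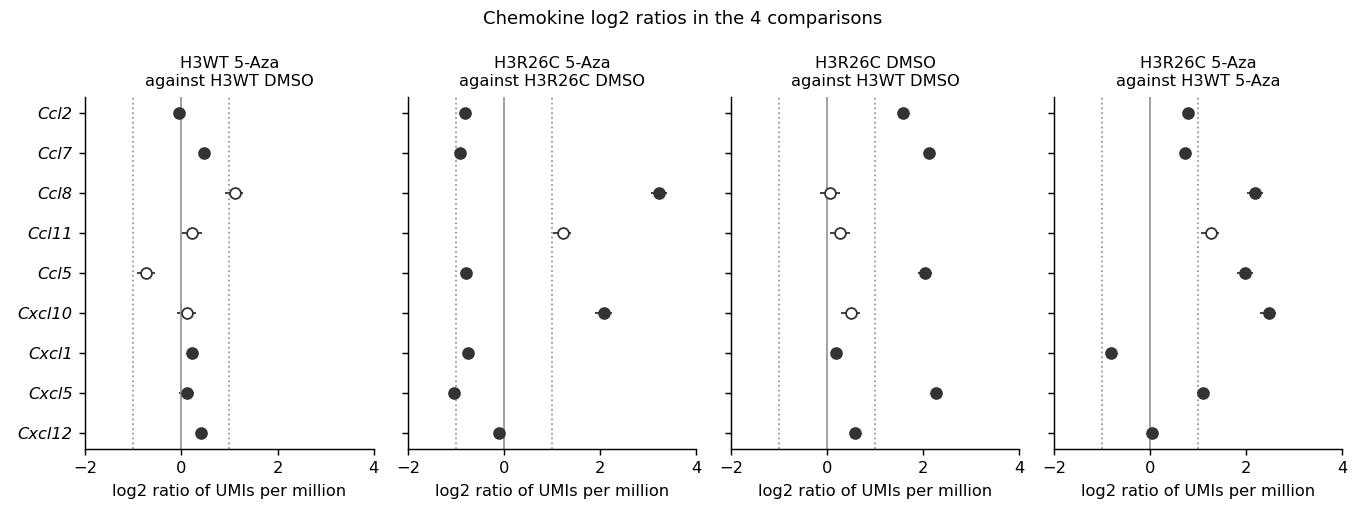
Log2 ratio of CPM + 1 for each chemokine in the 4 contrasts, with 95% counting intervals. Points beyond 1 or −1 are past 2-fold. Cxcl12 stayed between −0.12 and 0.57, and Ccl8 in H3R26C 5-Aza against DMSO was the farthest out at 3.23.

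The receptors of these ligands were nearly silent in the same cells. Of 23 receptor genes only Ackr3, an atypical receptor that takes up Cxcl12, reached 5 CPM, at 41.5, 62.3, 50.4 and 77.0 CPM with 16.6%, 23.5%, 19.7% and 27.4% of thinned cells positive. Cxcr4, the signalling receptor of Cxcl12, was counted 2, 11, 2 and 52 times and Ccr2 0, 2, 0 and 4 times. Among 35 other ligand genes, 6 reached 5 CPM in some library (Cxcl13, Ccl25, Cx3cl1, Ccl17, Cxcl16 and Ccl9). Of them, Cxcl16 was past 2-fold higher in H3R26C under DMSO (0.944 to 5.35 CPM, log2 1.71).

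A list of 20 genes linked to NF-kB was counted in the same way. Past 2-fold higher were 0 of 12 in H3WT cells after 5-Aza, 2 of 15 in H3R26C cells after 5-Aza (Ptgs2, the inducible cyclooxygenase, at 1.56 and the adaptor Traf1 at 1.19), 1 of 12 for H3R26C against H3WT under DMSO (Bcl3, an NF-kB cofactor, at 1.18) and 3 of 15 after 5-Aza (Traf1 1.87, Bcl3 1.26, Ptgs2 1.09). Over all genes 3.23%, 6.36%, 1.62% and 4.12% were past 2-fold higher in these contrasts. No gene of the list was past 2-fold lower, and its medians were 0.17, 0.19, 0.36 and 0.35. A list of 24 interferon-induced genes, 23 of them measured, is set against the same shares of all genes. Both lists were also chosen with earlier results of these data known, so these shares are a scale and no test. After 5-Aza 8 of 17 were past 2-fold higher in H3WT cells, led by Isg15 (2.24), Rtp4 (1.84) and Usp18 (1.52). In H3R26C cells 17 of 22 were past 2-fold higher, led by Isg15 (3.93), Ifi44 (3.19) and Irf7 (3.15). H3R26C exceeded H3WT by more than 2-fold for 0 of 14 under DMSO, where 13 ratios were above 0 and 1 below. After 5-Aza it did so for 16 of 22, led by Irf7 (2.67), Ifi44 (2.67) and Oasl2 (2.59). No gene of this list was past 2-fold lower in any contrast. The list medians were 0.76, 2.34, 0.37 and 1.77 in the order of the contrasts above, against 0.03, −0.04, 0.04 and −0.03 over all genes.

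Ccl2, Ccl7 and Ccl5 stood higher in cycling cells than in cells of the same library without a cycling UMI, most of all under DMSO, though the Ccl5 intervals overlapped in H3WT 5-Aza. Cells were graded by thinned UMIs of 8 mitotic genes (Mki67, Top2a, Cdk1, Ccnb1, Ccna2, Birc5, Cenpf and Tpx2). Those with at least 3 such UMIs made up 4.39%, 6.96%, 8.65% and 16.2% of the libraries, and those with none 88.1%, 82.7%, 82.8% and 64.6%. In cells with at least 3, Ccl2 stood at 535, 149, 876 and 200 CPM against 21.4, 43.2, 45.1 and 59.7 in cells with none. Ccl7 stood at 151, 60.9, 501 and 67.0 against 11.5, 26.7, 22.7 and 42.9, and Ccl5 at 38.9, 3.02, 91.1 and 13.3 against 0.899, 1.77, 5.68 and 10.4. Cells with at least 3 cycling UMIs held 61.9%, 25.2%, 68.0% and 45.1% of the libraries' Ccl2 UMIs, 46.9%, 19.1%, 69.6% and 29.2% of the Ccl7 UMIs and 67.1%, 15%, 64.4% and 28.04% of the Ccl5 UMIs. The gap between the groups of cells was wider in both DMSO libraries than in the 5-Aza libraries. The graded cells also had more UMIs, with medians of 34221, 19007, 27693 and 19360 against 22160, 12930, 16190 and 12529. The part of doublets in these levels was not tested. The rise was not steady for every member, since Ccl5 in H3R26C 5-Aza stood at 6.80 CPM in cells with 1 to 2 cycling UMIs, below both groups above.

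Cxcl10 was also found in cells with at least 3 cycling UMIs, which held 19 of 27, 19 of 35, 58 of 72 and 227 of 757 of its UMIs. In H3R26C 5-Aza it stood at 4.74 CPM in cells with none, 10.7 with 1 to 2 and 9.36 with at least 3. Cxcl12, Cxcl5 and Ccl8 did not gather in cells with at least 3. Cxcl12 stood at 548, 424, 832 and 475 CPM in cells with at least 3 cycling UMIs against 512, 722, 754 and 789 in cells with none, so it was lower in the cycling cells of both 5-Aza libraries. Cxcl5 stood at 7.29, 4.66, 19.1 and 8.20 against 6.49, 7.37, 37.5 and 19.5. Ccl8 was not counted at all in such cells of H3WT DMSO and stood at 3.01 CPM against 17.7 in H3R26C 5-Aza.

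The contrast between 5-Aza and DMSO differed by cell state for the monocyte and T cell attractants. In H3R26C cells with no cycling UMI, Ccl2 (0.40), Ccl7 (0.89) and Ccl5 (0.77) were higher in 5-Aza, against −0.82, −0.92 and −0.81 over all cells. Among cells with at least 3, they were lower at −2.13, −2.89 and −2.69. In H3WT cells the values were 0.98, 1.14 and 0.54 without cycling UMIs and −1.84, −1.30 and −3.31 with at least 3. Without cycling UMIs, H3WT Ccl5 lay under 5 CPM in both libraries (1.77 in 5-Aza and 0.899 in DMSO). Its value with at least 3 came from 24 and 224 UMIs. The sign of these ratios therefore depended on which cells were counted, in both genotypes for Ccl2 and Ccl7 and in H3R26C cells for Ccl5. Ccl8 (3.57), Cxcl5 (−0.91), Cxcl1 (−0.61) and Cxcl12 (0.07) in H3R26C cells without cycling UMIs stayed near their values over all cells, though Cxcl5 was then no longer past 2-fold and Cxcl12 crossed 0. Cxcl10 (2.41) then lay under 5 CPM. Under DMSO, H3R26C cells without cycling UMIs exceeded H3WT cells by 1.04 for Ccl2, 0.92 for Ccl7, 1.82 for Ccl5 and 2.36 for Cxcl5.

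**Figure D3:**
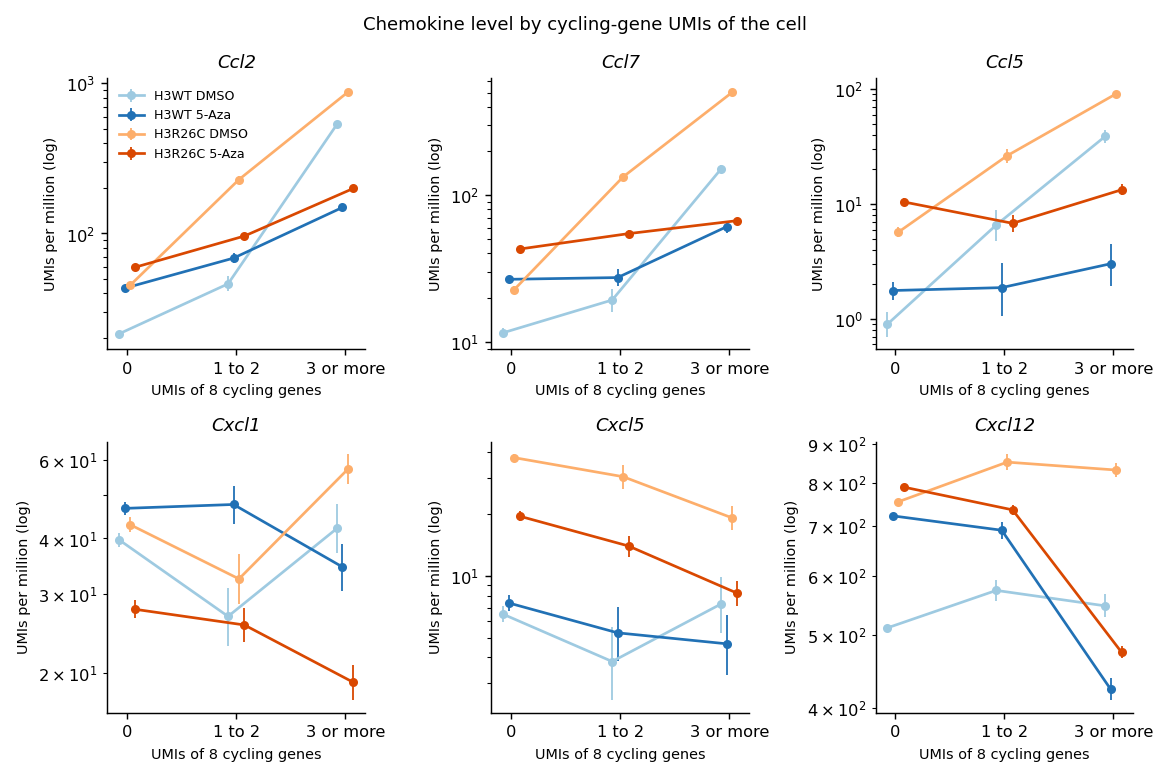
Level of chemokines (CPM, log axis) in cells without, with 1 to 2 and with at least 3 UMIs of the 8 mitotic genes, by library. Ccl2 reached 876 CPM in the cycling H3R26C DMSO cells against 45.1 in those without a cycling UMI, and 200 against 59.7 in H3R26C 5-Aza.

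Grouping the cells without the listed chemokine, receptor, NF-kB and interferon genes gave 11 clusters, of which 1 was skeletal muscle-like and 1 adipocyte-like by their markers and the others are named by number and leading genes. Cluster 4, led by the mitotic genes Birc5 and Top2a, held 70.1%, 28.1%, 76.9% and 52.4% of the libraries' Ccl2 UMIs at 523, 157, 904 and 203 CPM. It also held 91.7% of the 72 Cxcl10 UMIs of H3R26C DMSO, and 34.1% of those of H3R26C 5-Aza at 9.29 CPM. Cluster 5 (Tmem176b, Bace2), mostly H3R26C DMSO cells, had Cxcl12 at 1216 CPM there and 1272 in H3WT DMSO, and Cxcl5 at 46.8 and 11.9. Cluster 1 (Fosb, Fos) had Cxcl5 at 6.38, 7.87 and 29.5 CPM in H3WT DMSO, H3WT 5-Aza and H3R26C DMSO. Cluster 2 (Pi16, Sfrp4) had Cxcl12 at 212 and 153 CPM in the DMSO libraries and at 729 and 783 in the 5-Aza libraries. At Leiden resolution 0.8, a cluster led by Pi16 had narrower gaps. Cxcl12 there stood at 242 (DMSO) and 401 CPM (5-Aza) in H3WT, and at 232 and 510 in H3R26C. A separate cluster led by Scg2 and Apoe held 2769 H3WT 5-Aza cells, at 953 CPM, but only 15 H3WT DMSO and 7 H3R26C DMSO cells. The part of cell composition in the cluster 2 gap was not tested.

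In the H3R26C 5-Aza library the members' levels differed between clusters. Cluster 7 (Enpp2), with 7.38% of the library's cells, held 34.5% of its Ccl8 UMIs and 29.7% of its Cxcl10 UMIs, at 64.8 and 29.0 CPM, and had Ccl7 at 124 CPM against 50.3 over the library and Cxcl12 at 146 against 711. Cluster 3 (Crabp1, Ifi27l2a), with 4113 of the 7619 cells, had Cxcl12 at 1048, Ccl2 at 50.8, Ccl7 at 35.5 and Ccl8 at 15.3 CPM. It held 58.2% of the Ccl8 UMIs and 26.7% of the Cxcl10, 73.7% of the Cxcl12 and 79.4% of the Cxcl5 UMIs. Cluster 6 (Krt8) had Ccl2 at 122 and Ccl5 at 17.9 CPM, above the library's levels, and Cxcl12 at 244, Cxcl5 at 1.87 and Ccl8 at 0.439 CPM, below them. Clusters 6 and 7 held H3R26C 5-Aza cells alone, so in them cluster and library cannot be told apart.

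**Figure D4:**
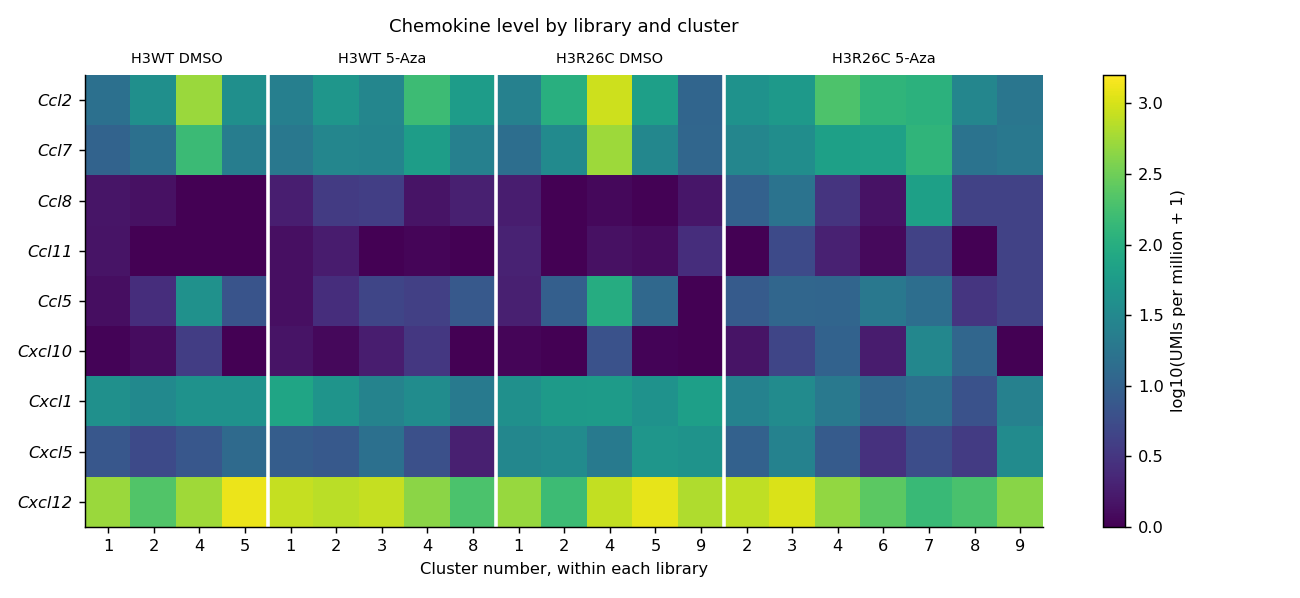
Level of each chemokine by library and cluster, in CPM on a log colour scale, for groups of at least 100 cells. Ccl2 was high in the mitotic cluster 4, Ccl8 and Cxcl10 in cluster 7, and Cxcl12 in clusters 3 and 5.

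Cells with more NF-kB list RNA held more of several members in every library. Cells were ordered by the share of their UMIs in the 20 genes, which include no member. Each library was split into 4 groups of equal size, and from the lowest to the highest group Ccl2 went from 5.36 to 197 CPM in H3WT DMSO, from 17.1 to 134 in H3WT 5-Aza, from 12.8 to 565 in H3R26C DMSO and from 52.7 to 192 in H3R26C 5-Aza. Ccl7 went from 7.15 to 60.1, 17.1 to 58.8, 9.51 to 316 and 30.6 to 88.5. Cxcl12 also stood higher, at 380 to 671, 566 to 812, 502 to 1084 and 581 to 746, and so moved in the same direction as Ccl2 and Ccl7. Not all members rose: Cxcl5 stood at 32.2 and 31.8 in H3R26C DMSO, and Ccl11 at 3.89 and 2.56 in H3R26C 5-Aza. The highest group held more cells with a cycling UMI in H3R26C DMSO (28.5% against 12.4%) but not in H3WT 5-Aza (17.9% in both). Without such cells Ccl2 still went from 4.58 to 61.8, 14.2 to 93.2, 8.82 to 117 and 41.0 to 102 CPM.

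The cells were also ordered by the interferon list. In H3R26C 5-Aza, the lowest and highest groups differed for Ccl8 (4.50 and 27.1 CPM), Cxcl10 (2.60 and 22.2), Ccl5 (5.44 and 21.7) and Cxcl12 (405 and 806), while Ccl2 stood at 128 and 103. Without cells with a cycling UMI, the values were 7.89 and 37.8 for Ccl8, 0.241 and 16.8 for Cxcl10, 4.46 and 25.2 for Ccl5 and 534 and 846 for Cxcl12. Ccl2 then stood at 50.03 and 78.7, so its direction turned, and Ccl7 at 31.7 and 60.8. In the DMSO libraries Cxcl12 was lower in the highest group, at 578 and 428 CPM in H3WT and 866 and 687 in H3R26C. Cxcl10 and Ccl5 did not go with the interferon list alone. By the NF-kB list in H3R26C 5-Aza, Cxcl10 went from 1.73 to 13.8 CPM and Ccl5 from 10.2 to 13.5. In H3R26C DMSO, Ccl5 went from 4.10 to 52.6 CPM by the NF-kB list and from 11.6 to 16.8 by the interferon list. Cxcl10 there was counted 1 and 67 times by the NF-kB list and 12 and 15 times by the interferon list. When H3R26C DMSO cells with a cycling UMI were left out, Cxcl10 was counted 0 and 3 times by the NF-kB list. By the interferon list it was counted 0 and 5 times, too few to set the lists apart. Ccl5 in those cells went from 3.13 to 11.9 CPM by the NF-kB list and from 3.97 to 5.68 by the interferon list. In H3R26C 5-Aza without such cells, Cxcl10 went from 0.298 to 8.98 CPM by the NF-kB list.

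**Figure D5:**
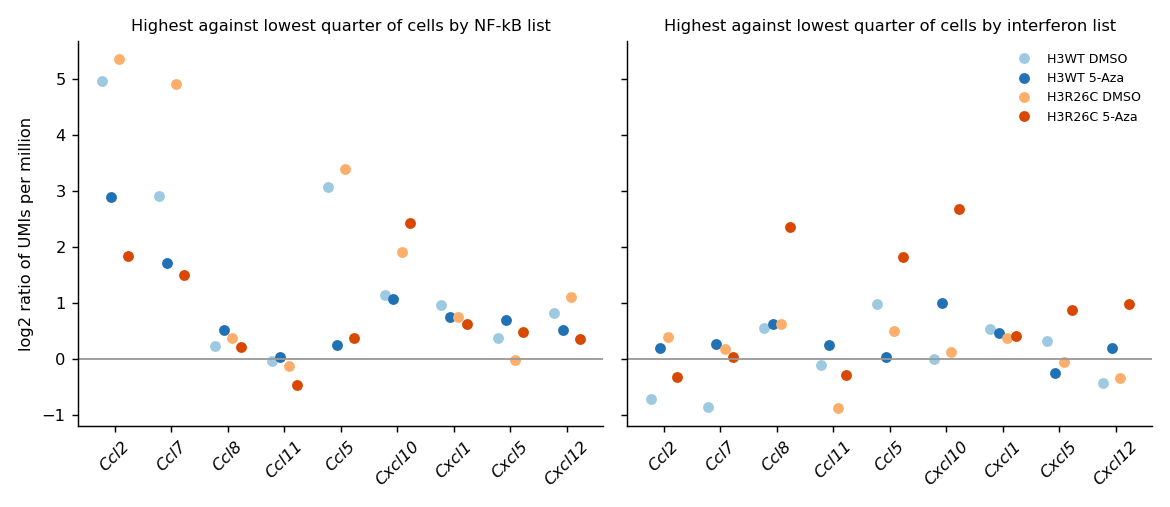
Log2 ratio of each chemokine's level in the highest to that in the lowest of 4 equal groups of the cells, by library. Cells were ordered by their share of UMIs in the NF-kB or interferon list. In H3R26C 5-Aza, the ratio for Ccl2 with the NF-kB list was 1.85 (52.7 to 192 CPM). That for Cxcl10 was 2.69 with the interferon list (2.60 to 22.2 CPM) and 2.44 with the NF-kB list (1.73 to 13.8 CPM).

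The neighbouring genes Ccl2 and Ccl7 were found in the same cells. A Ccl7 UMI was present in 31.2%, 31.9%, 50.8% and 33.8% of thinned cells with a Ccl2 UMI against 2.57%, 5.38%, 4.71% and 10.2% of cells without one. Without cycling UMIs the shares were 22.2%, 31.6%, 28.1% and 31.4% against 2.51%, 5.39%, 4.05% and 9.49%. Ccl5 was present in 6.94%, 1.27%, 16.5% and 3.39% of Ccl2-positive cells against 0.311%, 0.562%, 1.56% and 1.89% of the others. The neutrophil attractants also met. In cells with no cycling UMI, Cxcl1 was present in 30.2%, 30.7%, 25.6% and 29.6% of Cxcl5-positive cells against 12.1%, 14.2%, 12.2% and 6.77% of the others. In H3R26C 5-Aza, cells with and without a Cxcl12 UMI held Ccl2 in 14.9% and 20.2%, Cxcl10 in 0.762% and 2.08%, Cxcl1 in 9.09% and 5.72%, and Cxcl5 in 6.53% and 3.60%. Ccl2 and Cxcl10 were thus found in a smaller share of the Cxcl12-positive cells of that library, and Cxcl1 and Cxcl5 in a larger one. Cells with a cycling UMI were included in these shares. In that library, cells with at least 3 cycling UMIs and cells with none held Ccl2 in 30.8% and 13.3%, and Cxcl12 in 60.8% and 69.3%. The cause of the difference was not tested. In H3R26C DMSO, Ccl2 was in 11.2% of Cxcl12-positive cells and 8.82% of the others. These shares are of cells within 1 library, which are not replicates.

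Over 21 groups of at least 100 cells, each the cells of 1 library in 1 cluster, the genes with levels most like each member were ranked by Pearson correlation of log2(CPM + 1). The groups share libraries and depth, so these values describe the groups. Ccl2 went with Ccl7 (0.94), Lrwd1 (0.92) and Rnps1 (0.91), and Ccl7 next with Nfkbia (0.91), the NF-kB inhibitor, and Ccl5 (0.89). Ccl8 went with Retsat (0.92), Znhit6 (0.91) and the interferon-induced Usp18 (0.90). Cxcl10 went with Pck2 (0.84), Tpst2 (0.81) and 5430416N02Rik (0.81), Ccl5 with Ccl7, Ccl2 (0.88) and Nt5c3b (0.80), and Cxcl1 with Endod1, Marcks and Osbpl1a (0.90 each). Cxcl5 went with Pi15 (0.88), Acer3 (0.88) and Calcrl (0.87), and Cxcl12 with Gpr39 (0.81), Elovl6 (0.79) and F3 (0.79). Cxcl12 itself correlated at −0.09 with Ccl2, −0.02 with Ccl7, −0.28 with Cxcl10, 0.55 with Cxcl1 and 0.50 with Cxcl5.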

How the data were processed

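Single-cell libraries were made from H3WT and H3R26C C3H 10T1/2 cells given DMSO or 5-Aza, 1 library each. The authors ran Cell Ranger 6.1.0 on the mm10 reference and deposited raw UMI counts per gene and barcode, and the submitters' processing notes name Seurat 4. From these counts, barcodes with at least 5000 UMIs, 1500 genes and at most 20% mitochondrial UMIs were kept (84060490 to 110712425 UMIs a library). UMIs were summed and scaled to CPM. Ratios are log2((CPM + 1)/(CPM + 1)), read for genes with at least 5 CPM in either library, with a 2-fold threshold and exact 95% intervals, which cover counting error only. Shares used cells thinned to 5000 UMIs. Clusters came from scanpy 1.11.5 (2000 variable genes without the listed genes, 20 components, 30 neighbours, Leiden 0.4). Named genes were the 9 members, the 3 list genes farthest from 0 in a contrast and the 3 genes most like each member. Alternatives used edgeR 4.0.16 TMM factors and other filters, scalings, pseudocounts and cells. The ratio step was tested on simulated counts. The members, lists and markers were chosen with earlier results of these data known.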

Additional observations from a re-analysis of the deposited data

Results flagged for a closer look

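The ratio of 5-Aza to DMSO pointed opposite ways in the H3WT and H3R26C lines for 3 members, with both counting intervals clear of 0. The difference was not tested, since each condition was 1 library. The intervals do not cover concentration in few cells. In H3WT DMSO, 10 cells carried 35.7% of the Ccl7 UMIs, so no direction is read for Ccl7. For Ccl7 the log2 ratio was 0.47 (H3WT) and −0.92 (H3R26C), which differ by −1.39, and in cells with no cycling UMI both lines were above 0 (1.14 and 0.89). Cxcl1 stood at 0.23 and −0.77, a difference of −0.99. Cxcl12 stood at 0.41 and −0.12, a difference of −0.53. In cells with no cycling UMI it stood at 0.50 and 0.07, so both lines were above 0 there too. Cxcl5 also had opposite signs, 0.11 and −1.06, but its H3WT interval (−0.04 to 0.25) included 0.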

How the results depend on the processing

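No paired analysis was possible because only 1 library was made per condition. Counts of members past 2-fold under DMSO (H3R26C against H3WT) stayed within 1.5 times under every alternative tried. For H3WT 5-Aza against DMSO, 0 members higher became 1 with no expression minimum (Ccl8), 2 without the 5% of cells with the most UMIs (Ccl2, Ccl7) and 1 in cells with no cycling UMI (Ccl7). For H3R26C 5-Aza against DMSO, 2 higher became 0 with a minimum of 20 CPM and 1 (Ccl8) in cells with no cycling UMI, and 1 lower became 0 with a pseudocount of 5 CPM and 0 in cells with no cycling UMI. For H3R26C against H3WT after 5-Aza, 4 higher became 0 with a minimum of 20 CPM. In cells with at least 3 cycling UMIs, a setting chosen after seeing the data, H3WT 5-Aza against DMSO had 3 lower, H3R26C 5-Aza against DMSO had 0 higher and 5 lower, and H3R26C against H3WT after 5-Aza had 2 higher. The 20 CPM minimum by construction leaves fewer members to count, and the cause of the others was not tested. Scaling by TMM or size factors, per-cell means, a pseudocount of 0.1 CPM, looser and stricter cell filters and leaving out muscle-marked or adipocyte-marked cells moved none of the 9 counts by more than 1.5 times, and Cxcl12 passed 2-fold under no setting. Without thinning 35 of 36 shares moved beyond their interval, and with another seed 2 did. At Leiden resolution 0.8, 13 of 36 highest cluster levels moved. Ccl11 in every library, Ccl8 and Cxcl10 outside H3R26C 5-Aza, and Ccl5 in both H3WT libraries were measured under 5 CPM. Their ratios therefore rest on few UMIs, with 334 and 160 for Ccl5 in H3WT DMSO and H3WT 5-Aza.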

Other observations

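Cxcl13, the B cell attractant, was not counted in either DMSO library and stood at 3.50 CPM in H3WT 5-Aza and 42.9 in H3R26C 5-Aza, which is at least 1201-fold above H3R26C DMSO when that library is set at a floor of 3 UMIs. Of its 4745 UMIs in H3R26C 5-Aza, 4160 lay in the skeletal muscle-like cells, where it reached 684 CPM against 58.4 in those of H3WT 5-Aza. The log2 ratio between the 5-Aza libraries was 3.29. Ccl9 in the mitotic cluster 4 stood at 45.02, 22.7, 45.7 and 16.9 CPM in H3WT DMSO, H3WT 5-Aza, H3R26C DMSO and H3R26C 5-Aza. Among the 91 thinned H3R26C 5-Aza cells with a Cxcl10 UMI, Ccl2 was present in 50.5% against 16.2% of the others.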
